A study of Rattus norvegicus with 24 samples.

Results

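BDE-47, a tetrabrominated diphenyl ether once used in flame retardants, was given to pregnant and nursing rats, and the sperm of their sons was compared with that of control sons at postnatal day (PND) 120. The exposed animals were 6 male Wistar rats whose dams received 0.2 mg/kg body weight of BDE-47 daily by mouth from pregnancy day 8 to PND21. The 6 control rats of the same strain, sex and age had dams that were given the corn oil vehicle alone. Dosing ended when the pups were weaned, and 1 male per litter was used at each age, per the labels. Sperm was taken from the cauda of the epididymis, selected by swim-up, and passed through a density gradient against somatic cells. These 12 animals belong to a series of 24, whose other 12 were killed at PND65.

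Methylation of cytosines in CpG dinucleotides was read by reduced representation bisulfite sequencing, which samples CpG-rich fragments cut out by a restriction enzyme. The comparison covered every region of the authors' deposited age table, 5327 of 5327, each with 1 methylation level per group, and beside it the 9 of 30 rows of their exposure table that belong to PND120. An age region is a stretch of at least 3 CpGs whose methylation the authors found to change from PND65 to PND120, in controls, in exposed animals or in both, at q under 0.05. No value of a single animal was used, so that no difference below has an SD or a test, and the read depth of each library and region is unknown. At 5316 regions the controls differed by at least 5 percentage points between the ages, and at the other 11 only BDE-47 sperm did. The control animals of PND120 therefore took part both in choosing the regions and in the comparison made here. An effect of that choice and an effect of exposure cannot be told apart from group values.

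Mature sperm carries high methylation over most of its genome, while CpG islands, the CpG-dense stretches at many promoters, are largely free of it. Genes of embryonic patterning have particularly long islands of this kind, held by Polycomb proteins in many cell types. Methylation in sperm is laid down before and around birth in the male germ line and is maintained as spermatogonia divide, which is why exposure in that window is studied. The regions were mostly small and close to genes. Their median length was 155 bp, with quartiles of 64 and 2141 bp, and their median number of CpGs was 4. The named gene contained or touched 4246 of them, 597 had their nearer end within 1 kb upstream of its start, and 484 lay elsewhere. Since 1461 regions exceeded 1 kb, the gene printed for a long one is only one of those it may reach.

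Promoters of a few genes with an upstream region are shown for their CpG content. The 3 below belong to the genes whose upstream region, ending within 250 bp of the gene start, had the largest differences at PND120. They are RefSeq sequences of assembly GRCr8, running from 250 bases before to 50 bases after the gene start, 5′ to 3′ on the gene's strand, with every CpG in capitals. The methylation tables use assembly rn6, so the regions were not placed on these letters, and Kcng3 lies on the minus strand in the rn6 table.
Rwdd3, GRCr8 chr2:211933543-211933842, minus strand: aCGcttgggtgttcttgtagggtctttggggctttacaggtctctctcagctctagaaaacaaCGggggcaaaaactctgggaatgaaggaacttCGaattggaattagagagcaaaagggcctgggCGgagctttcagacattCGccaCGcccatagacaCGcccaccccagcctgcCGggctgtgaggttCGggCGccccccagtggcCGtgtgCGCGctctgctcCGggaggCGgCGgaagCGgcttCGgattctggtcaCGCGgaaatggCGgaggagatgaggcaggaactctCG
Cacna1b, GRCr8 chr3:27944236-27944535, minus strand: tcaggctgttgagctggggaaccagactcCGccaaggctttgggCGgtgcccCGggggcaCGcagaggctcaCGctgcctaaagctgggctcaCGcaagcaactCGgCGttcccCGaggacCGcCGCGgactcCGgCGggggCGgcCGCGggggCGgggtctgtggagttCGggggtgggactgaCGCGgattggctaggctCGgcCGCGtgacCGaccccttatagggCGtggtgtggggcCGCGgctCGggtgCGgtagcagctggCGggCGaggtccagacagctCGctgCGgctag
Kcng3, GRCr8 chr6:16803592-16803891, plus strand: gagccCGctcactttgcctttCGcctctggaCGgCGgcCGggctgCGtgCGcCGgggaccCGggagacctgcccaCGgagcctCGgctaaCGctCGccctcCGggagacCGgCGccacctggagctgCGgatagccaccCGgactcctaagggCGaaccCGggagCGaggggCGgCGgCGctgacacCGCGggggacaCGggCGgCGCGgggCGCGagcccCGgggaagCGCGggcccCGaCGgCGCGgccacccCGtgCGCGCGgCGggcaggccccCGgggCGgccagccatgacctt

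These promoters hold 22 CpGs in Rwdd3, 34 in Cacna1b and 46 in Kcng3. The median was 23 over the 3008 promoters of genes with an age region, and 7 over all 27457 promoters in the table. The motif CCGG, which reads the same on both strands and is the site of the enzyme MspI commonly used for this assay, occurred 2 times each in Rwdd3 and Cacna1b and 9 times in Kcng3. It was present in 86.7% of promoters of genes with an age region and in 53.0% of all promoters. The assay samples CpG-rich fragments cut by a restriction enzyme, which favours genes with such promoters whatever their methylation. These contrasts are therefore no result about methylation. A match describes these letters only.

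At the upstream region of Rwdd3, which encodes an enhancer of sumoylation, the level was 0% in BDE-47 sperm and 37.8% in control sperm. That region, at rn6 chr2:224723152-224735824, holds 3 CpGs over 12672 bp and ends 24 bp from the gene. Upstream of Cacna1b, the pore subunit of N-type calcium channels, 4 CpGs over 18843 bp had 9.74% in BDE-47 sperm and 34.7% in control sperm. At the compact 15 bp region 28 bp before Kcng3, a modifier subunit of voltage-gated potassium channels, the level was 31.9% in BDE-47 sperm against 10.3% in control sperm. Upstream of Hmx1, a homeobox factor of eye and ear development, 4 CpGs within 159 bp had 10.9% in BDE-47 sperm and 31.0% in control sperm. Of these 4, Kcng3 alone was higher in BDE-47 sperm.

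Across all listed regions, methylation at PND120 was lower in BDE-47 than in control sperm at most places and by a few points. The median level was 7.93% in BDE-47 sperm (quartiles over regions 5.53 and 13.7%) and 12.7% in control sperm (9.73 and 18.5%). BDE-47 sperm had the lower level at 4805 regions, which is 90.2% of all tested. The median difference, BDE-47 minus control, was -4.11 points, with quartiles of -5.71 and -2.77 points. A threshold of 5 points was passed downward by 1812 regions, 34.0% of those tested, and upward by 223, or 4.19%. The other 3292 regions lay within 5 points, and 238 of them within 1 point. Many regions sat beside the threshold, with 961 lower by 4 to under 5 points and 631 lower by 5 to under 6 points.

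Low levels were counted in both groups, but the listing limits how low the controls can be. A region listed for a control gain of at least 5 points cannot have a control level under 5% at PND120, and 5280 of the regions had such a gain. The level was under 10% at 3348 regions in BDE-47 sperm and at 1473 in control sperm, and under 5% at 1043 regions in BDE-47 sperm and at 0 in control sperm, where the 0 follows from the listing. The lowest control level was 5.51%. At PND65, where the listing favours low controls, levels under 5% were given for 794 regions in BDE-47 sperm and 3606 in control sperm. At the 5280 regions with a control gain of at least 5 points, the BDE-47 level at PND120 was set beside both control ages. On the span from the younger to the older control level, its median position was 55.9%, with quartiles of 44.7 and 67.6%. The listing set these control levels apart, so the choice of regions favours a position between them. That position does not measure a change with age in BDE-47 sperm. Over all listed regions, the BDE-47 median was 8.54% at PND65 and 7.93% at PND120.

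**Figure D1:**
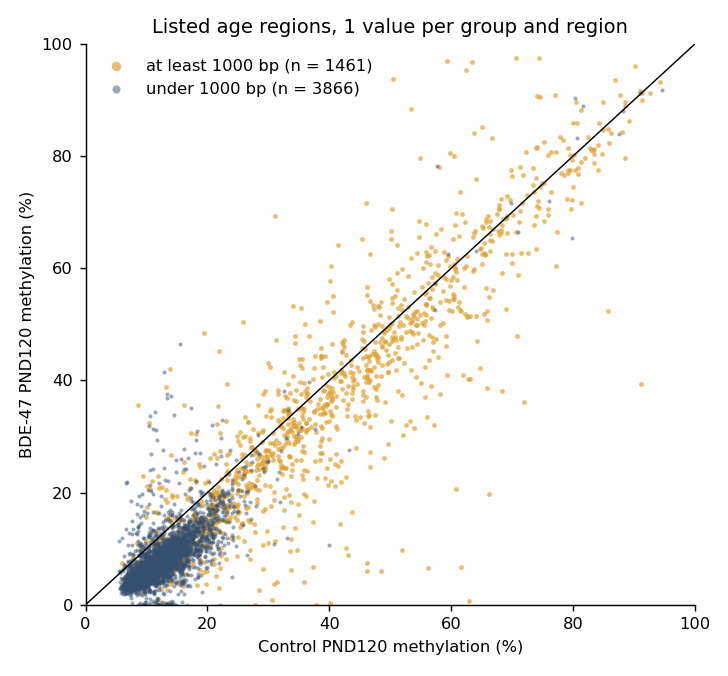
Methylation level of each listed age region in BDE-47 sperm (vertical axis, %) against control sperm (horizontal axis, %) at PND120, 1 point per region and 1 value per group, coloured by region length; the line marks equal levels. The 3866 regions under 1000 bp crowd below the line at low levels, and the 1461 longer ones scatter on both sides of it.

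The level in controls went with both the size and the direction of the difference, though it is itself part of that difference. In regions with under 10% in controls, the median was 4.83% in BDE-47 sperm and 8.48% in control sperm, and 137 of 1473 were lower by at least 5 points. Between 10 and 15% in controls, the medians were 7.42% in BDE-47 sperm and 12.1% in control sperm, and 760 of 1922 were lower by that amount. The class from 15 to under 30% had the highest share, 648 of 1155 (56.1%), with a median difference of -5.50 points. Above it the groups came closer in the median while single regions spread apart. From 30 to under 60% the median difference was -3.26 points, with 209 of 559 regions lower and 75 higher by at least 5 points. At 60% or more it was -1.39 points, with 58 of 218 lower and 33 higher. The SD of the difference over regions was 2.29 points in the lowest class and 11.9 points in the highest.

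Length and number of CpGs gave a similar picture. Regions under 100 bp were below control at 1919 of 2038 (94.2%), and 45 of them were higher by at least 5 points. Regions of at least 10 kb were below at 695 of 943 (73.7%), and 118 were higher by that amount. Their quartiles ran from -6.88 to 0.497 points, against -5.05 to -2.95 points for regions under 100 bp. With 3 CpGs the median difference was -4.52 points, and with at least 10 CpGs it was -2.73 points. Long regions were also the more methylated ones, with a control median of 35.8% at 10 kb or more and 10.4% under 100 bp, so length and level went together. Within control levels under 30%, the median was -4.17 points under 1000 bp (3835 regions) and -4.42 points at 1000 bp or more (715 regions). In these classes 95.2% of the shorter and 86.3% of the longer regions were below control, and 1.77% of the shorter and 6.57% of the longer were higher by at least 5 points.

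**Figure D2:**
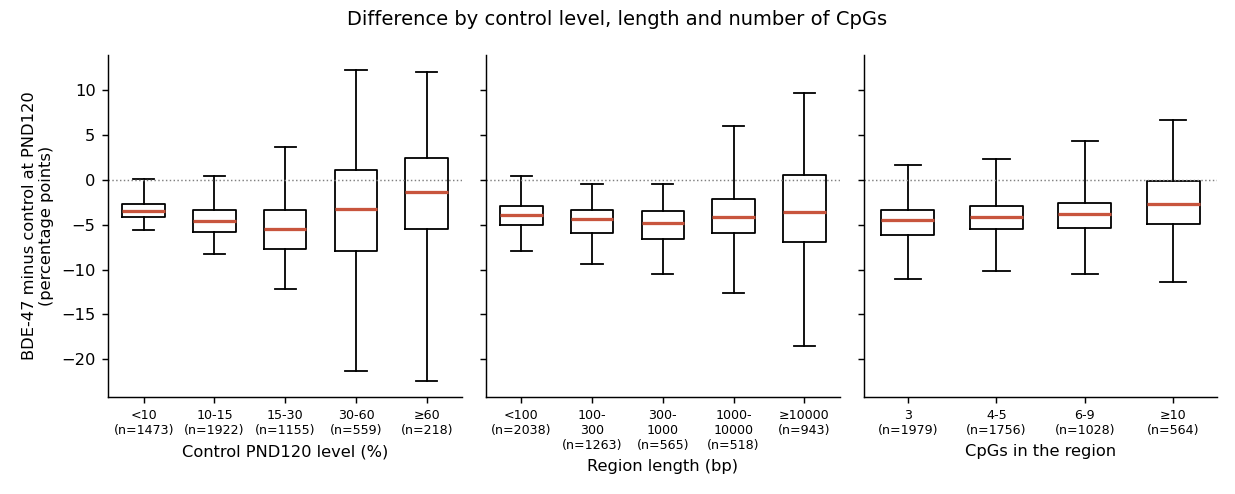
Difference in methylation at PND120, BDE-47 minus control, in percentage points (vertical axis), over regions grouped by control level, length and number of CpGs; boxes span the quartiles, the coloured line is the median and whiskers reach the 5th and 95th percentiles of regions. The medians are below 0 in all 14 classes, from -1.39 to -5.50 points. The boxes are wider at control levels of 30% or more than below, and wider at 1000 bp or more than below.

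Medians lay close together by position relative to the gene. The median was -4.12 points over 4246 regions that touched the gene body, -4.18 points over 597 upstream regions and -3.93 points over the remaining 484. Shares lower by at least 5 points were 34.9% in gene bodies, 32.3% upstream and 28.7% elsewhere. By chromosome, the autosomal medians ran from -4.67 points on chromosome 11 to -3.83 points on chromosome 7, and between 86.7 and 94.6% of regions were below control on each of the 20 autosomes.

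The extremes differed from the bulk in length and CpG density, but a threshold of 20 points limits where they can lie. BDE-47 sperm cannot be lower by 20 points where the control level is under 20%. The median control level was 46.3% in the regions lower by at least 20 points and 35.7% in those higher, against 12.7% over all. As long regions were also the more methylated ones, length and this limit were not separated. A difference of at least 20 points in either direction was found at 89 regions (1.67% of those tested), 55 lower and 34 higher. Of the 89, 61 were 10 kb or longer, a share of 68.5% against 17.7% of all listed regions. Their median was 4 CpGs, as over all regions, spread over a median of 23960 bp, and their median density was 0.212 CpGs per kb against 28.04 per kb over all. How many reads or which CpGs each group contributed in such sparse regions is unknown.

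The most negative difference was found at Ppid, the gene of the peptidyl-prolyl isomerase cyclophilin 40. There 3 CpGs over 38673 bp (rn6 chr2:178350770-178389443) had 0.746% in BDE-47 sperm and 62.9% in control sperm, a difference of -62.2 points. At Cd2bp2, which encodes a spliceosomal U5 component, 3 CpGs over 3118 bp (chr1:198639280-198642398) had 6.80% in BDE-47 sperm and 61.6% in control sperm. Csmd1, a large membrane protein with complement-regulating domains, had 6.54% in BDE-47 sperm and 56.2% in control sperm over 4 CpGs. RGD1562532 had 39.3% in BDE-47 sperm and 91.2% in control sperm, and LOC100364769 had 6.04% in BDE-47 sperm and 48.5% in control sperm. The other genes in this set of 10 were Slc22a15, an organic ion transporter, Nqo2, a quinone reductase, Cdh7, a type II cadherin, Atad2b, a bromodomain ATPase, and Clp1, an RNA kinase of tRNA splicing. Their differences ran from -46.5 points at Slc22a15 to -39.8 points at Clp1, where the level was 0.298% in BDE-47 sperm and 40.1% in control sperm. All 10 touched a gene body, and 9 of them were 10 kb or longer.

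Among regions higher in BDE-47 sperm, Syt7, a calcium sensor of vesicle release, led with 93.8% in BDE-47 sperm and 50.4% in control sperm over 10 CpGs (chr1:226489659-226501197). Fgf16, a fibroblast growth factor gene on chromosome X, had 69.3% in BDE-47 sperm and 31.1% in control sperm at 3 CpGs. The substrate receptor gene Fem1a of a cullin ubiquitin ligase had 97.0% in BDE-47 sperm and 59.3% in control sperm. At Gip, the gene of an incretin hormone, the level was 88.5% in BDE-47 sperm and 53.3% in control sperm. The protocadherin gene Pcdh9 had 48.4% in BDE-47 sperm and 19.5% in control sperm, over 3 CpGs that span 445055 bp, and Commd7, a regulator of NF-kB, had 42.1% in BDE-47 sperm and 13.9% in control sperm over 12 CpGs. LOC103693877 had 96.8% in BDE-47 sperm and 63.4% in control sperm, and LOC692034 had 95.3% in BDE-47 sperm and 62.5% in control sperm. With Ube2g1 and Hint2, described with the short regions, the set of 10 differed by 28.1 to 43.4 points.

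**Figure D3:**
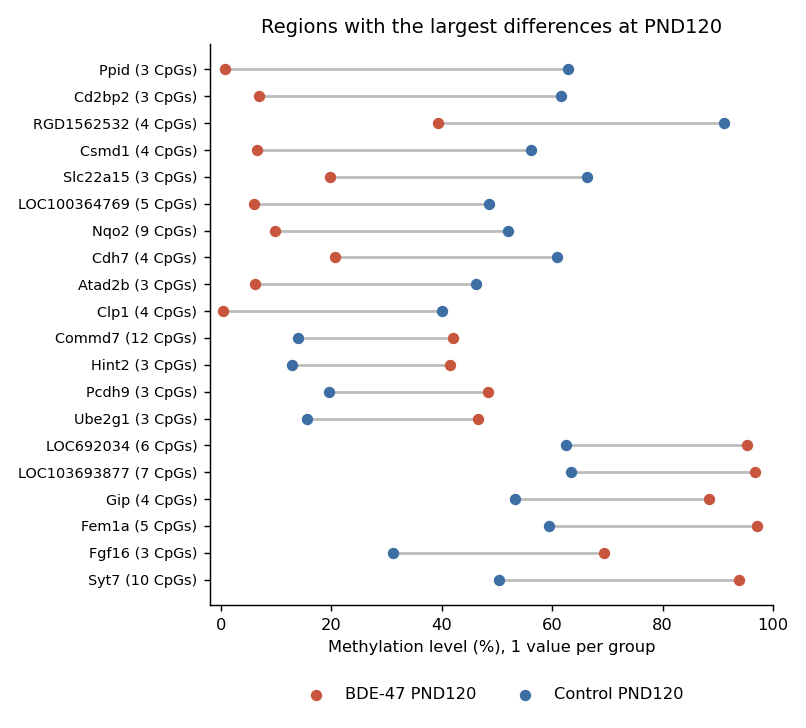
Methylation level (horizontal axis, %) of BDE-47 and control sperm at PND120 in the 10 regions with the most negative and the 10 with the most positive difference, named by gene with the number of CpGs; each point is the authors' group value and lines join both groups of a region. The differences run from -62.2 points at Ppid to 43.4 points at Syt7.

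Short regions with a large difference can be tied to a gene more closely, and 14 of the 89 were under 1000 bp. This group was picked after its values were seen. In 10 of them BDE-47 sperm was higher, and 9 of those 10 held 3 CpGs. The control median over all 3866 regions under 1000 bp was 11.2%. A control level under 20% leaves no room for a difference of -20 points, while it leaves room for a gain of that size. The split of 10 and 4 therefore says nothing on direction in short regions. Ube2g1, a ubiquitin-conjugating enzyme gene, had 46.5% in BDE-47 sperm and 15.5% in control sperm within 17 bp (chr10:59173441-59173458). Hint2, a mitochondrial nucleotide hydrolase gene, had 41.5% in BDE-47 sperm and 12.8% in control sperm within 16 bp (chr5:59152452-59152468). At Rad54b, a DNA repair helicase of homologous recombination, the level was 37.6% in BDE-47 sperm and 13.4% in control sperm. Pcdh8, a protocadherin gene, had 33.6% in BDE-47 sperm and 10.5% in control sperm. Zfp827, Plekhg2, Rnf151, LOC298789, Kcng3 and Kxd1 complete the set, with differences of 20.2 to 23.5 points. The region assigned to LOC298789 lay 32217 bp from that gene and is not closely tied to it. Among the 9 with 3 CpGs, the younger controls at PND65 had at most 6.36%, while BDE-47 sperm of that age had at least 23.1%.

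The remaining 4 short regions were lower in BDE-47 sperm. H2afy2, which encodes the histone variant macroH2A2, had 0% in BDE-47 sperm and 22.0% in control sperm over 3 CpGs within 121 bp. Tead3, a transcription factor gene of the Hippo pathway, had 11.9% in BDE-47 sperm and 33.1% in control sperm. Hmx1, whose levels are given above, is another. At H2afy2 both groups were near 0 at PND65, with 0.493% in BDE-47 sperm and 0.761% in control sperm.

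Set beside the younger animals, the same regions split in 2 ways. The PND65 groups were other animals, though they can be littermates of those at PND120, and PND65 controls also took part in listing the regions. At 4484 of 5327 regions BDE-47 sperm was above control at PND65 and below it at PND120. It was below at both ages at 319 regions and above at both at 506. Medians over all regions were 8.54% in BDE-47 and 0.936% in control sperm at PND65, and 7.93% in BDE-47 and 12.7% in control sperm at PND120. The BDE-47 medians thus differed by under 1 point between the ages.

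Opposite signs at the 2 ages were more frequent among short regions than among long ones. Under 100 bp, 1880 of 2038 regions (92.2%) were above control at PND65 and below it at PND120. At 10 kb or more this held for 515 of 943 (54.6%), while 180 were below and 244 above at both ages. The share also fell with the control level at PND120, from 94.0% under 10% to 34.9% at 60% or more. Length and level went together and were not separated here. Under 100 bp the control median at PND65 was 0.535%, which leaves BDE-47 sperm little room below control. Across regions, Spearman's rho between the differences at the 2 ages was 0.0731 under 100 bp (n = 2038) and 0.727 at 10 kb or more (n = 943). These values describe regions that share libraries and the listing, and no test was made. Of the 89 regions with at least 20 points at PND120, 87 differed by at least 5 points with the same sign at PND65, and 0 had the opposite sign. An opposite sign there would need age changes that differ between the groups by over 20 points. The threshold thus favours a shared sign, and the count is no test of persistence. Ppid, for example, had 0.645% in BDE-47 sperm and 57.7% in control sperm at PND65, and Syt7 had 83.9% in BDE-47 sperm and 45.8% in control sperm. At all 20 regions of the 2 extreme sets, the sign was shared and the PND65 difference was over 20 points.

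**Figure D4:**
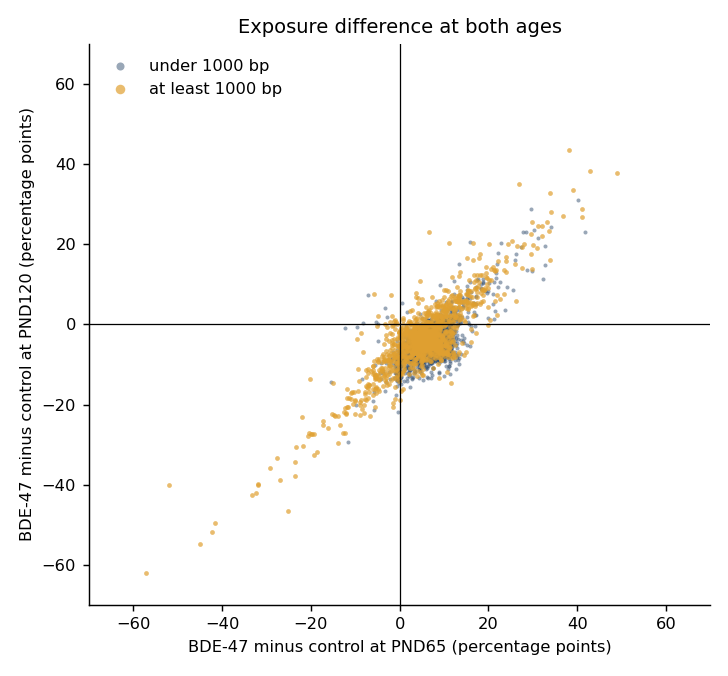
Difference between BDE-47 and control sperm, in percentage points, at PND120 (vertical axis) against PND65 (horizontal axis), 1 point per listed region, coloured by region length. Of 5327 regions, 4484 lie in the lower right quadrant, and 0 of the 89 with at least 20 points at PND120 have the opposite sign at PND65. The threshold of 20 points itself favours a shared sign.

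Gene groups were read against the shares over all regions, 90.2% below control by any amount, 34.0% lower and 4.19% higher by at least 5 points, and a median of -4.11 points. Homeobox and paired-box factors, which lay out the body axis and organs, formed the largest group, with 166 regions at 88 of 160 genes. In this group 60 regions were lower (36.1%) and 3 higher, and the median difference was -4.50 points. Hoxb3 was one of the 3, with 55.1% in BDE-47 sperm and 40.7% in control sperm over 14 CpGs. Nkx1-1 had 0.120% in BDE-47 sperm and 14.1% in control sperm. Forkhead, Sox, T-box and GATA factors had 22 of 79 regions lower and 1 higher, a median of -4.17 points. At Foxe1, needed for the thyroid and palate, the level was 6.89% in BDE-47 sperm and 16.7% in control sperm. At Sox13 it was 11.8% in BDE-47 sperm and 21.0% in control sperm.

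Signalling genes of the Wnt, Hedgehog, BMP, FGF and Notch pathways had 27 of 98 regions lower and 4 higher, with a median of -3.96 points. Among ligands, Bmp3 had 22.6% in BDE-47 sperm and 39.3% in control sperm, and a 5767 bp region upstream of Wnt7b had 42.5% in BDE-47 sperm and 30.2% in control sperm. The type II BMP receptor gene Bmpr2 had 31.7% in BDE-47 sperm and 46.7% in control sperm. For insulin, PI3K and mTOR signalling, which couples nutrients to growth, 11 of 38 regions were lower and 0 higher, with a median of -4.10 points. Deptor, an inhibitor of mTOR, had 4.05% in BDE-47 sperm and 15.8% in control sperm. The insulin-regulated transcription factor gene Foxo6, also a member of the forkhead list, had 9.08% in BDE-47 sperm and 18.8% in control sperm. A region assigned to Rragc, a Rag GTPase that brings mTOR to lysosomes, lay 66710 bp from the gene and had 6.01% in BDE-47 sperm and 13.7% in control sperm.

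DNA methylation and chromatin modifiers had 19 of 54 regions lower and 2 higher, with a median of -4.45 points. Mbd3, a subunit of the NuRD repressor complex, was one of the 2, with 21.3% in BDE-47 sperm and 10.6% in control sperm over 3 CpGs within 203 bp. The histone demethylase gene Kdm2a, whose product binds unmethylated CpGs, had 11.2% in BDE-47 sperm and 20.5% in control sperm. Jarid2, an accessory protein of Polycomb complex PRC2, had 5.30% in BDE-47 sperm and 13.5% in control sperm. Synaptic and ion channel genes had 17 of 56 regions lower and 4 higher, with a median of -3.82 points. Besides Syt7 and Cacna1b, the presynaptic adhesion gene Nrxn2 stood out by size, with 80.5% in BDE-47 sperm and 59.8% in control sperm. Cadherins, protocadherins, integrins and matrix genes had 12 of 41 regions lower and 3 higher, with a median of -3.76 points, and Cdh7 and Pcdh9 were their extremes in the 2 directions.

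Reproductive and toxicological lists held few regions, and their counts below control stand beside 90.2% of all listed regions. Spermatogenesis and sperm function genes had 7 regions at 7 of 66 genes, all 7 below control and 4 lower by at least 5 points. Zpbp2, an acrosomal protein of sperm that binds the zona pellucida, had 5.15% in BDE-47 sperm and 13.4% in control sperm. Tssk6, a kinase of late spermatids, had 10.3% in BDE-47 sperm and 16.1% in control sperm. Catsper2, a subunit of the sperm calcium channel, had 5.47% in BDE-47 sperm and 10.9% in control sperm. The thyroid, steroid and gonadal list had 11 regions at 6 of 47 genes, all 11 below control and 3 lower by at least 5 points. Nr5a1, the steroidogenic factor gene, had 8.88% in BDE-47 sperm and 18.5% in control sperm, and Inhbb, a subunit of inhibin B and activin B, had 5.41% in BDE-47 sperm and 12.6% in control sperm. At the mineralocorticoid receptor gene Nr3c2 the level was 7.12% in BDE-47 sperm and 11.9% in control sperm. In the xenobiotic and lipid sensing list, 7 of 8 regions were below control and 4 lower by at least 5 points. They included Srebf2, a regulator of cholesterol synthesis, with 10.1% in BDE-47 sperm and 19.2% in control sperm, and the fatty acid receptor gene Ppara, with 12.8% in BDE-47 sperm and 20.6% in control sperm. Gclm, of glutathione synthesis, had 13.4% in BDE-47 sperm and 20.2% in control sperm.

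**Figure D5:**
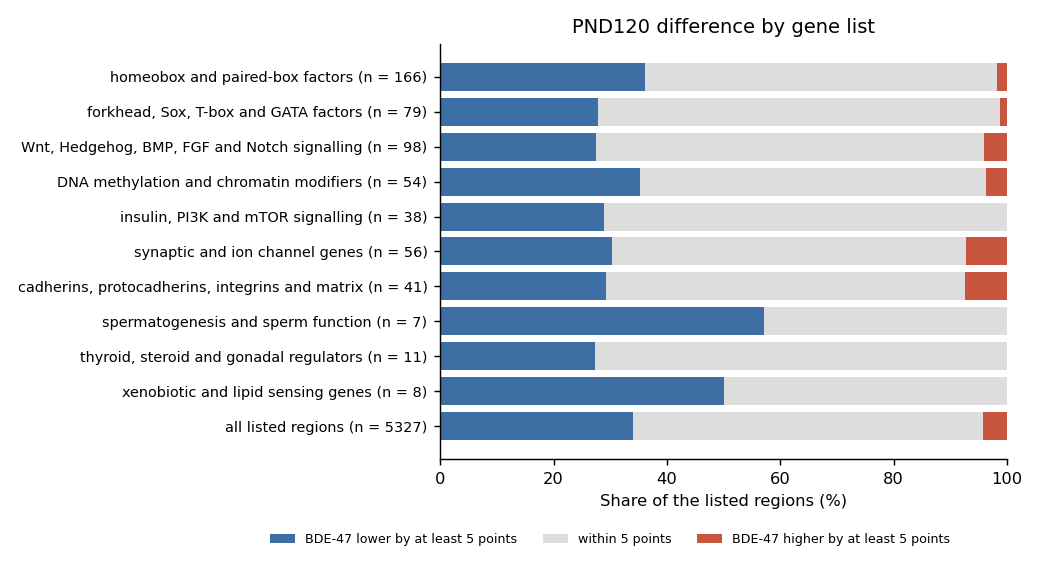
Share of each gene list's regions (horizontal axis, %) that were lower in BDE-47 sperm by at least 5 points, within 5 points, or higher by at least 5 points at PND120; n is the number of regions, and lists with under 7 regions are left out. The share lower runs from 27.3 to 57.1% among lists, beside 34.0% of all listed regions.

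Imprinted and germline genes, which would tell sperm from somatic DNA, were nearly absent from the list. Maternally methylated imprinted genes should be unmethylated in sperm, and 2 of 28 had a region. Trappc9 had 11.6% in BDE-47 sperm and 17.1% in control sperm. A region 8121 bp from Nnat had 80.2% in both groups, differing by -0.00842 points. Paternally methylated genes had a region at 0 of 7. Germline genes that somatic cells methylate had one at 2 of 35, where Tdrd6, a component of the germ cell chromatoid body, had 4.35% in BDE-47 sperm and 7.496% in control sperm. A region 1191 bp from Zfp42 had 40.8% in BDE-47 sperm and 48.4% in control sperm over 154822 bp. With so few regions, the identity of the cells was not tested.

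Genes with several regions varied within themselves, and their counts below control stand beside 90.2% of all listed regions. Nr2e1, a nuclear receptor gene needed by neural stem cells, had 7 regions, all below control, with differences from -8.59 to -1.13 points. Levels over these 7 ran from 4.65 to 10.5% in BDE-47 sperm and from 6.17 to 15.8% in control sperm. At Ptch1, the Hedgehog receptor, all 7 regions were below control, by -8.13 to -1.20 points. Skor1, a transcriptional corepressor, had 6 regions, all below, from -8.93 to -2.32 points. Zbtb7a, a zinc-finger repressor, had 6 of 7 below. Its exception was the upstream region of 4540 bp and 10 CpGs, with 37.8% in BDE-47 sperm and 36.4% in control sperm. Neighbouring regions of 1 gene share libraries and animals and are not replicates.

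Regions with the most CpGs and the highest levels differed by under 4 points. The region with the most CpGs, 267 over 973298 bp assigned to LOC100361319, had 83.5% in BDE-47 sperm and 82.4% in control sperm. Another of 156 CpGs, assigned to LOC102554113, had 84.7% in BDE-47 sperm and 84.9% in control sperm, and 107 CpGs at Zar1l had 76.8% in BDE-47 sperm and 80.8% in control sperm. The highest control level was at Stk10, a lymphocyte kinase gene, with 91.9% in BDE-47 sperm and 94.7% in control sperm. At Gosr1 and Spry1, next in order, the differences were -1.05 and -1.45 points. The lowest control levels, at RGD1309594, Chst2 and Farsb, had differences of 0.523 points, 5.86 points and 0.0664 points in that order.

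The authors' deposited exposure table compares exposure groups within an age and lists 9 regions at PND120. Its header calls the animals mouse, while the labels give rat. Listing required q under 0.05, at least 3 CpGs and a change of at least 5 points, per the file header. The header does not say which group was subtracted, so each change below is given as deposited, and a positive one is not known to mean higher in BDE-47 sperm. At PND120, 7 changes were positive and 2 negative in the authors' deposited table, and sizes ran from 10.0 to 40.9 points. The only region of this table that meets an age region is a PND65 one near LOC365605, with a change of 31.0 points in the authors' deposited table. The age region there, of 11 CpGs over 33452 bp, had 19.6% in BDE-47 sperm and 8.58% in control sperm at PND65. That 1 partial overlap is the whole evidence on the sign.

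The authors' deposited table gives the largest change, 40.9 points, in 12 CpGs of chr18:81018205-81019144, 38.4 kb from the zinc-finger gene Zfp407. At PND65 it lists the same start with 10 CpGs and 40.0 points in the authors' deposited table. For Slc46a3, a lysosomal transporter gene, the authors' deposited table gives -27.3 points over 14 CpGs in the gene body (chr12:8729018-8729287). The gene body region of LOC100909844, at chr5:98547694-98547893, had -25.4 points at PND120 and -35.4 points at PND65 in the authors' deposited table, with 5 and 4 CpGs. These 2 regions, of 9 listed at PND120 and 21 at PND65, had the same sign at both ages. The animals were others but can be littermates, and both regions had passed the listing at each age. Over all rows, 7 of 9 changes at PND120 and 5 of 21 at PND65 were positive in the authors' deposited table. Persistence was not tested.

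The remaining 6 changes were positive in the authors' deposited table. They were 24.1 points 18.5 kb from LOC100362780, 18.4 points in Myh14, a non-muscle myosin heavy chain, and 17.0 points 8.62 kb from LOC102550954, in the authors' deposited table. It also lists 11.9 points 24.2 kb from Tp53rk, a kinase of the KEOPS tRNA-modifying complex, 10.5 points in Irgm, an immunity-related GTPase, and 10.0 points 15.0 kb from Slc11a2, the divalent iron transporter, in the authors' deposited table. The 9 regions were 34 to 939 bp long, and 4 touched a gene body.

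None of these 9 met an age region, 0 of 9 by any shared base. The nearest age regions lay from 3566 bp away, at Slc46a3, to 2099528 bp away, at LOC100909844. At all 9 nearest age regions BDE-47 sperm was below control at PND120, by -8.99 to -2.999 points, beside a share of 90.2% below control over all listed regions. Slc46a3 and Slc11a2 appeared by name in both tables. The age region of Slc11a2, 4 CpGs in the gene body, had 5.55% in BDE-47 sperm and 8.55% in control sperm. The age region 29 bp from Slc46a3 spans 233377 bp and had 17.5% in BDE-47 sperm and 23.8% in control sperm. With 0 of 9 meeting an age region, all 5327 age regions were absent from the exposure table at PND120. Changes there started at 10 points. The absence of the 1812 age regions lower by at least 5 points follows from that and is no trait of theirs. The same holds for the 311 age regions lower and the 100 higher by at least 10 points. These include all 89 with at least 20 points, Ppid and Syt7 among them. Listing in the exposure table required a change of at least 5 points and q under 0.05. Why these age regions were absent from it was not tested.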

How the data were processed

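Bisulfite sequencing covered sperm DNA of 24 rats. Reads were mapped to rn6 with Bismark 0.16.1 and Bowtie2 2.2.9, per the submitters' processing notes. Per the series' design text, PCR duplicates were removed, CpGs with at least 10 reads were kept, and differentially methylated regions were found with MethPipe. The age table gives methylation levels as fractions from 0 to 1, deposited as a single figure for each group, and how animals were combined is not given in the sources used here. The exposure table and the age differences are signed scores in percentage points, deposited by the authors. Fractions were multiplied by 100 and subtracted, BDE-47 minus control, with pandas 2.3.3 in Python 3.11.15. Counts used a threshold of 5 points. The summaries were tested on simulated data. Of 12 columns used, 0 hold single animals, so there was no test, and the depth is unknown.

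A distance of 0 was read as the gene body, and upstream meant within 1 kb before the gene by strand. Coordinates are as deposited, on rn6, and whether starts count from 0 or 1 is not given in the sources used here. Of 4131 gene names, 3617 matched a current RefSeq symbol of GRCr8 and 155 an older one. Of 401 upstream regions within 250 bp of the gene, 307 had a promoter in the RefSeq table. Named regions were the 10 most negative and 10 most positive differences, the 3 with the largest difference in each of 13 gene lists (1 per gene), the 4 genes with the most regions, the 3 regions with the most CpGs and with the highest and lowest control levels, the 4 upstream regions with the largest difference within 250 bp of a gene (3 promoters printed), and every exposure row at PND120. Members and lists were chosen with earlier results of these data known. Alternatives changed the length, CpG, position, chromosome and size filters and the weighting. Part of the short-region and promoter results is not reported here.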

Additional observations from a re-analysis of the deposited data

How the results depend on the processing

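The direction over all regions, more below than above control, held under each alternative tried. Each alternative drew on the same listed regions, chosen in part by their control levels at PND120. None can therefore show whether the direction comes from the listing. Against 90.2% of regions below control and a median of -4.11 points, regions of at least 100 bp gave 87.7% and -4.31 points, and regions of at most 10000 bp gave 93.75% below and 105 rather than 223 higher by at least 5 points. Regions with at least 10 CpGs gave 75.9% and -2.73 points, with 133 lower and 46 higher of 564. Weighting each region by its CpGs gave 85.7% and -3.75 points. With a difference of at least 10 points, 311 regions were lower and 100 higher. By ratio, 951 regions had a BDE-47 level of at most 0.5 times the control level and 37 one of at least 2 times. Gene bodies alone, or leaving out chromosome X, moved no count by over 1.5 times. In the authors' deposited exposure table, 7 of 9 changes at PND120 were positive. With at least 20 points, 2 of 4 were positive in the authors' deposited table. With at least 10 CpGs, 1 was positive, at Zfp407, beside a negative change at Slc46a3. Turning the sign only makes the 2 negative changes positive. No paired analysis was possible because only group values were used. Without values per animal or depth, the precision of any level is unknown.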

Other observations

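Chromosome X held 42 of the listed regions and was more mixed than the autosomes. BDE-47 sperm was below control at 28 of them (66.7%), 19 were lower and 10 higher by at least 5 points, and 7 differed by at least 20 points. The median level was 15.6% in BDE-47 sperm and 23.2% in control sperm, where the control median over all listed regions was 12.7%. Over all chromosomes, 91.3% of regions at control levels of 15 to under 30% were below control, and 71.7% at 30 to under 60%. Chromosome X was not compared with the autosomes at like level or length. Among the 40 regions that lost methylation with age in controls, BDE-47 sperm was below control at 21, with 11 lower and 8 higher by at least 5 points and a median difference of -0.821 points. A level of exactly 0% was given for 20 regions in BDE-47 sperm and 36 in control sperm at PND65, and for 26 in BDE-47 sperm and 0 in control sperm at PND120, where a listed control gain leaves no room for a control level of 0%.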
